A study of Mus musculus with 18 samples.

Results

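Small nucleolar RNA host genes are noncoding genes whose introns carry small nucleolar RNAs (snoRNAs). The 10 genes described here were chosen by symbol, as known host genes, from the 13218 loci of a table of RNA levels in mouse testis germ cells: Snhg1, Snhg3, Snhg5, Snhg6, Snhg8, Snhg12, Snhg16, Gas5, Zfas1 and Epb41l4aos. The rule used symbols and no measured value, although the list was drawn up with earlier results of these data known. All 10 were among the 4117 loci tested, those that 3 or more libraries held at 1 FPKM or above. FPKM is the number of fragments scaled to transcript length and to the size of the library, so levels of different genes are compared per length.

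A snoRNA is trimmed out of a spliced intron and guides the chemical modification or cleavage of ribosomal RNA. Box C/D snoRNAs guide methylation of the ribose and box H/ACA snoRNAs guide pseudouridylation, so the snoRNA hosts are tied to the making of ribosomes. The spliced host RNA left behind is often unstable, and many host genes start with a tract of pyrimidines, a feature they share with ribosomal protein genes. During spermatogenesis, spermatogonia divide by mitosis, spermatocytes pass through meiosis, and haploid spermatids then shape the sperm and silence much of their genome.

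All libraries came from testes of ICR mice, from cells separated with the STA-PUT method, which lets them settle by gravity so that larger cells sink faster. The 6 groups were priSG-A at postnatal day 6, priSG-B at day 9, plpSC at day 14, pacSC at day 21, rST at day 35 and elST at day 56, with 3 libraries each, although the series text speaks of duplicates. Inferred depth was 31.7 to 92.1 M fragments per library. The labels do not expand these names, which in this field commonly refer to spermatogonia (SG), spermatocytes (SC) and spermatids (ST). No treatment or mutant allele is named in any label. Nothing says whether the libraries of a type are from different animals, so each p-value reflects the spread between libraries alone, which may be technical.

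The table holds noncoding loci, and none of the 42 coding marker genes fixed for germ, Sertoli, Leydig, myoid and blood cells has a row. The cell type labels could therefore not be checked against their defining markers. Other loci describe the libraries instead. AY036118, a locus regarded as derived from ribosomal RNA, stood at 7.25 to 36.2 FPKM in 6 libraries (called batch I here, although no label names a batch) and at 1998 to 13911 FPKM in the other 12 (batch II). The 6 libraries are those of priSG-B, the first 2 of pacSC and the third of elST. Inferred depth was 65.2 to 92.1 M fragments in batch I and 31.7 to 56.8 M in batch II. Inferred fragment length was 235 to 270 bp in batch I and 200 to 215 bp in batch II. Whether depth or fragment length has a part in the levels below was not tested. The locus 1700027A15Rik overlaps Tnp1, a transition protein gene of spermatids. It stood below 1 FPKM in all priSG-B libraries, in replicates 1 and 2 of priSG-A and plpSC and in replicate 1 of rST and elST, and at 11.8 FPKM in priSG-A replicate 3. It stood at 73.0 to 84.9 FPKM in pacSC replicates 1 and 2 and elST replicate 3, and at 874 to 4539 FPKM in plpSC replicate 3, pacSC replicate 3, rST replicates 2 and 3 and elST replicate 2. For 13 of the 18 libraries the closest library over all tested loci carried another type label. Replicate 3 of priSG-A, plpSC and pacSC and replicate 1 of rST and elST stood apart from their types, and the type means, correlations and tests are given with and without them. These 5 were picked from the profiles, and the libraries kept do not form clean types either. Replicates 1 and 2 of priSG-A were closest to plpSC replicates 1 and 2, and elST replicate 3 to pacSC replicate 2. The kept elST replicates 2 and 3 differed in 1700027A15Rik (875 and 73.0 FPKM) and AY036118 (1998 and 7.41 FPKM).

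The start sites of the host genes are shown first, because a pyrimidine tract at the start is known for this class. Whether the starts have a part in the levels below was not tested. A 300-base window around the start (250 bases before it, 50 from it on) was listed by RefSeq on GRCm38.p6, the mm10 assembly, for 8 of the 10 members, with 2 starts for Gas5. Snhg6 and Epb41l4aos were not among them. Each line gives 30 bases before the start and 30 from it on, 5′ to 3′ on the strand of the gene, and capitals mark the longest unbroken run of C and T within 20 bases of the start.
Snhg1, chr19:8723457-8723516, plus strand: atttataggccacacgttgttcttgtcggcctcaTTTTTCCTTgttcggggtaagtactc
Snhg12, chr4:132308648-132308707, plus strand: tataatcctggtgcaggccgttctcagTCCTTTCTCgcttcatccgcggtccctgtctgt
Snhg16, chr11:116671630-116671689, plus strand: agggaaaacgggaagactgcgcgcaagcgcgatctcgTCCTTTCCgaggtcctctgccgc
Snhg8, chr3:123508307-123508366, minus strand: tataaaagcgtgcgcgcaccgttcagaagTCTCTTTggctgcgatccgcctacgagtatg
Snhg5, chr9:88522868-88522927, minus strand: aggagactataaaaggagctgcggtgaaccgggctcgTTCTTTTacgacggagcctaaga
Gas5, chr1:161035136-161035195, plus strand: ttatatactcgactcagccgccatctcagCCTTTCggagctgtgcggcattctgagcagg
Snhg3, chr4:132353657-132353716, minus strand: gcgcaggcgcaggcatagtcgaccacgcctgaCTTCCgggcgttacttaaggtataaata
Zfas1, chr2:167062904-167062963, plus strand: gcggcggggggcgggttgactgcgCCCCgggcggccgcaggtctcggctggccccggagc

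The run was longest in Snhg1 and Snhg12, at 9 bases, and reached 6 bases or more in 6 of the 9 member windows. Of all 32851 RefSeq windows, 37.5% had a run of at least 6 bases on the gene's strand. The letters TATA lay between 40 and 11 bases before the start in 5 of the 9 member windows (Snhg1, Snhg5, Snhg8, Snhg12 and the Gas5 start printed above) and in 6.52% of all windows. The other Gas5 start, at 161034601 on chromosome 1, had a run of 3 bases and no TATA there. CACGTG, the core of the site that Myc family proteins bind, was in 0 of the 9 windows and in 7.15% of all, and both words read the same on either strand. These are matches of letters, not sites of use, and RefSeq may place a start a few bases from the one used in these cells.

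The GENCODE M21 annotation places 34 snoRNA loci inside the 10 hosts on their own strand. Gas5 holds 9 of them, Snhg1 8, Snhg12 4, Snhg16 and Zfas1 3 each, Snhg3 and Snhg5 2 each, and Snhg6, Snhg8 and Epb41l4aos 1 each. By sequence the hosts fall into classes, counted over 36 annotated entries at these loci. The box C and box D words, TGATGA within the first 20 bases and CTGA within the last 20, were found in snoRNA entries of Gas5 (8 of 10), Snhg1 (5 of 8), Zfas1 (3 of 3), Snhg5 (2 of 2) and Snhg6 (1 of 1). An ACA within the last 8 bases, without both box words, marked the entries of Snhg3 (2 of 2), Snhg8 (1 of 1) and Epb41l4aos (1 of 1). Snhg12 had 1 entry with the box words and 3 with the ACA alone, and the 3 entries of Snhg16 had neither, although their names, Snord1a, Snord1b and Snord1c, are those of box C/D snoRNAs. Over all 1507 snoRNA entries of M21, 20.5% had both box words and 46.8% the ACA, the latter counted with or without the box words. One snoRNA of each class is printed from M21 to show what the introns carry, with the box words or the ACA in capitals.
Snord47, in Gas5, chr1:161038082-161038158, plus strand: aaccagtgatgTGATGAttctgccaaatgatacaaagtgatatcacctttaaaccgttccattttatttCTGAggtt
Snora24, in Snhg8, chr3:123507937-123508066, minus strand: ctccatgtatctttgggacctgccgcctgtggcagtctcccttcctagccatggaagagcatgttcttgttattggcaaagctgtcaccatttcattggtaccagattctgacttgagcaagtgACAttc

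For 30 of the 34 loci at least 1 annotated host transcript keeps the snoRNA inside an exon, so fragments from unspliced RNA or from the snoRNA itself could be counted for the host. The 4 loci of Snhg3, Snhg6 and Epb41l4aos are intronic in every transcript. Overlapping exons are a further limit. Snhg3 shares 135 bases of exon with Rcc1 on its own strand and 705 with Gm17300 on the other, Snhg16 shares 497 with St6galnac2, Snhg6 127 with Mcmdc2, and Zfas1 82 with Znfx1, the latter 3 on the other strand. Zfas1 also shares 189 bases with the small transcript Gm27494 on its own strand. TruSeq RNA kits of the catalogue number given leave strand unmarked, and fragments from these stretches could not be assigned to 1 of the 2 genes.

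**Figure D1:**
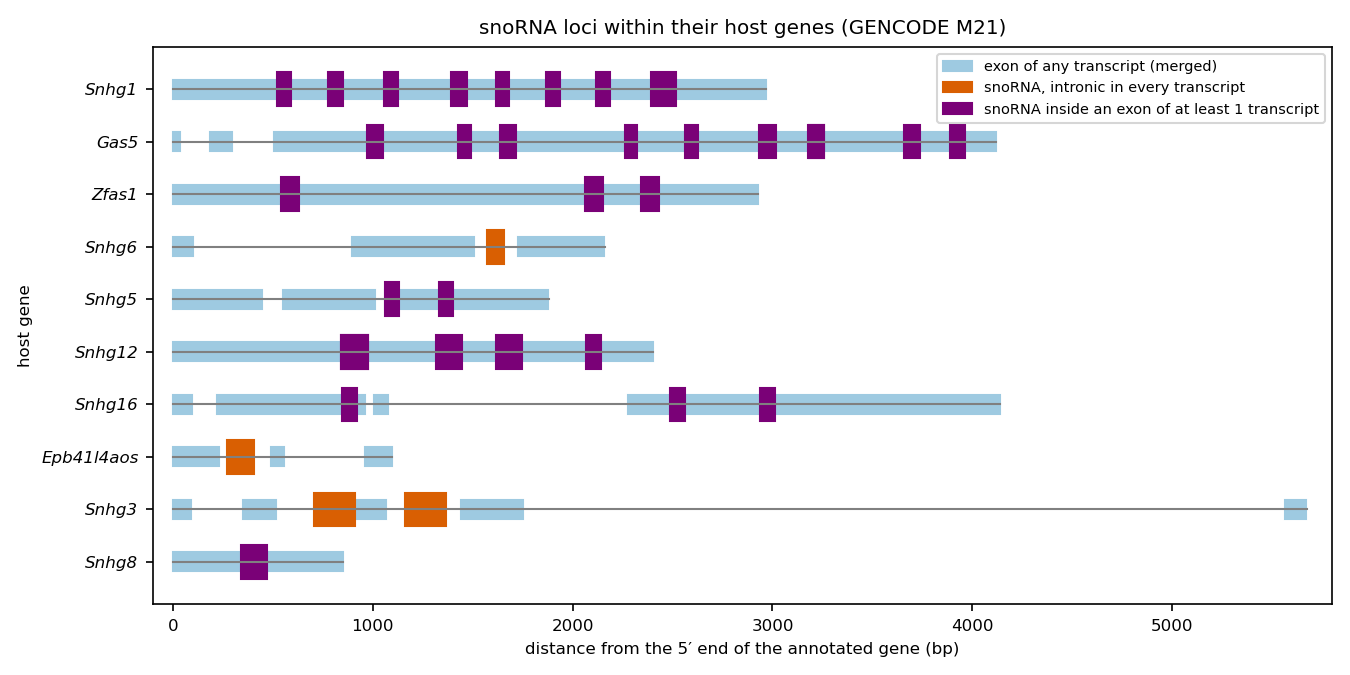
Position of the annotated snoRNA loci (tall boxes) and of merged exons (low boxes) along each host gene, in bp from the 5′ end of the M21 gene. Snhg1 and Gas5 carry 8 and 9 snoRNA loci, while Snhg6, Snhg8 and Epb41l4aos carry 1.

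The hosts of box C/D snoRNAs, with the mixed host Snhg12 and with Snhg16, are described first. Snhg1, on chromosome 19 (8723475 to 8726443), is a processed transcript that shares its start region with Slc3a2, read in the other direction from a start 106 bases away. Levels were 37.5, 54.1 and 19.1 FPKM in priSG-A (replicates 1, 2 and 3, the order used throughout), 90.03, 91.2 and 106 in priSG-B and 26.5, 45.5 and 2.04 FPKM in plpSC. The later types gave 13.5, 16.3 and 3.33 FPKM (pacSC), 34.5, 2.83 and 1.99 (rST) and 42.4, 3.69 and 13.6 (elST). The 3 priSG-B libraries lay above every other library. For this and the other separations of libraries in these descriptions of single genes, the share of all tested loci was not counted. The 5 lowest values were those of the 5 libraries in which 1700027A15Rik stood at 874 FPKM or more, and rST replicate 1 and elST replicate 1, where that locus was below 1 FPKM, lay inside the priSG-A range.

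Gas5, on chromosome 1 (161034422 to 161038539), is a growth arrest transcript and had the highest mean FPKM of the 10 over the libraries, at 29.2 to 46.7% of their summed FPKM in a library. The priSG-A libraries held 126, 144 and 74.6 FPKM, the priSG-B libraries 166, 166 and 177.05 and the plpSC libraries 92.5, 133 and 37.1. Levels of 68.7, 69.5 and 36.6 FPKM followed for pacSC, 86.2, 32.4 and 29.9 for rST and 106, 47.8 and 68.7 for elST. Its libraries spanned a narrower range than those of Snhg1, with the highest library 5.92 times the lowest, against 53.6 times for Snhg1. In 3 libraries, plpSC replicate 3, pacSC replicate 3 and elST replicate 2, Snhg8 stood above Gas5.

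Zfas1, on chromosome 2 (167062934 to 167065862), is read away from the start of Znfx1 and carries Snord12. It had the widest span of the 10, 125 times from rST replicate 3 to priSG-B replicate 3. Its FPKM was 20.8, 33.8 and 12.9 in priSG-A, then 63.95, 59.8 and 70.4 in priSG-B and 16.4, 43.2 and 1.30 in plpSC. For pacSC the values were 5.82, 7.05 and 1.19 FPKM, for rST 22.1, 1.23 and 0.566 and for elST 24.9, 1.96 and 6.71. The pacSC libraries overlapped neither priSG type, and the share of all tested loci for which this holds was not counted.

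Snhg6 (chromosome 1, 9941959 to 9944118), the host of Snord87, had levels of 10.8, 21.7 and 7.997 FPKM in priSG-A, 55.5, 50.4 and 56.9 in priSG-B and 22.3, 38.0 and 2.68 in plpSC. The later types gave 11.8, 13.8 and 2.40 FPKM (pacSC), 15.7, 1.82 and 1.08 (rST) and 18.3, 3.84 and 11.9 (elST). Apart from the priSG-B libraries, the highest value was in plpSC replicate 2.

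Snhg5, which hosts the Snord50 pair, is listed by the authors on chromosome 9 at 88495268 to 88523562, a longer span than the M21 gene at 88521050 to 88522929. Levels were 20.9, 28.4 and 15.8 FPKM for priSG-A, 36.9, 38.1 and 40.3 for priSG-B and 30.7, 31.4 and 5.52 for plpSC. Levels of 16.1, 17.5 and 6.01 FPKM followed for pacSC, 22.7, 2.74 and 2.66 for rST and 24.7, 6.37 and 16.2 for elST. As in Snhg6, plpSC replicates 1 and 2 lay above all 3 priSG-A libraries while plpSC replicate 3 lay below them.

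Snhg12 (chromosome 4, 132308623 to 132311024), which carries Snora16a, Snora44, Snora61 and Snord99, had levels of 12.5, 16.1 and 11.7 FPKM in priSG-A, 23.2, 24.6 and 27.9 in priSG-B and 10.2, 17.9 and 1.29 in plpSC. For pacSC the values were 10.6, 10.3 and 1.42 FPKM, for rST 15.3, 1.93 and 1.14 and for elST 13.8, 1.99 and 10.4. The 5 libraries with 1700027A15Rik at 874 FPKM or more held 1.14 to 1.99 FPKM, and no other library fell below 10.2 FPKM.

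Snhg16, whose M21 gene (chromosome 11, 116671660 to 116675799, listed there as 1810032O08Rik) is shorter than the authors' span of 116671604 to 116685072, departed in part from this pattern. The priSG-A libraries held 4.71, 7.75 and 4.70 FPKM, the priSG-B libraries 20.7, 19.7 and 20.1 and the plpSC libraries 4.36, 11.1 and 1.76. The later types gave 11.9, 13.6 and 1.51 FPKM (pacSC), 4.81, 1.61 and 1.15 (rST) and 7.63, 3.37 and 12.6 (elST). After priSG-B, its 3 highest libraries were the remaining ones of batch I, 2 of pacSC and 1 of elST.

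**Figure D2:**
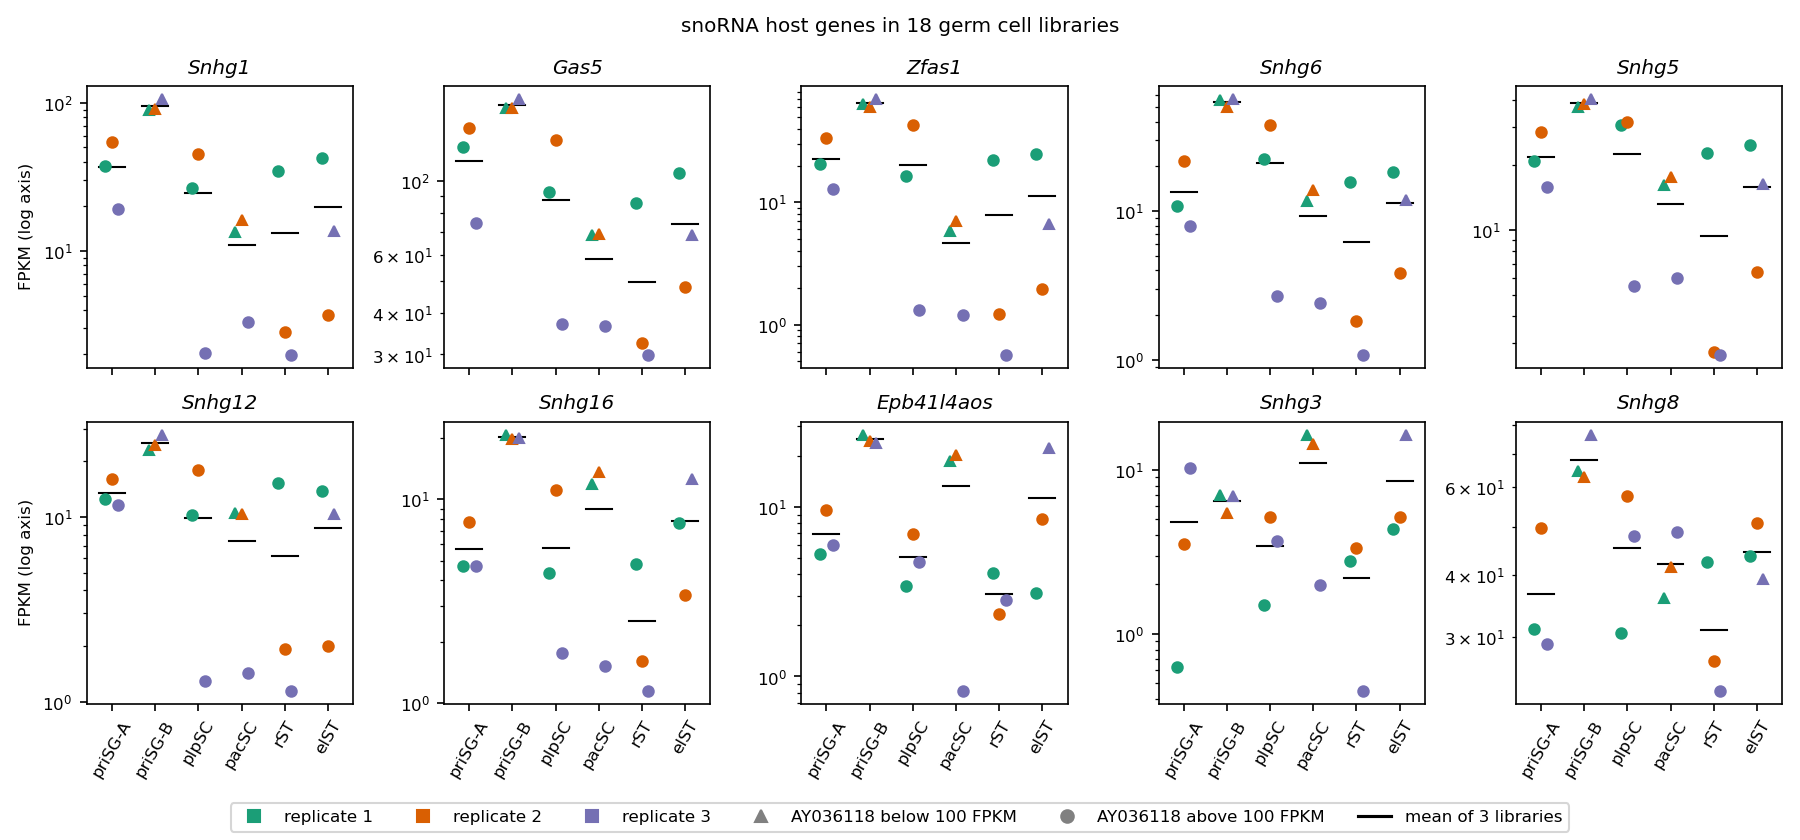
FPKM (log axis) of each host gene by type, 1 point per library, coloured by replicate number, triangles for batch I (AY036118 below 100 FPKM), with the mean of 3 libraries as a bar. The priSG-B points are the highest in every panel except Snhg3, and Snhg8 spans the narrowest range, 23.4 to 76.4 FPKM. The share of all tested loci with priSG-B highest was not counted.

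The 3 genes whose snoRNA entries all carried the ACA alone are described next. Epb41l4aos (chromosome 18, 33794892 to 33795986) lies beside Epb41l4a, which is read from the opposite strand. Its FPKM was 5.27, 9.61 and 5.95 in priSG-A, then 26.7, 24.5 and 24.0 in priSG-B and 3.40, 6.97 and 4.77 in plpSC. Levels of 18.6, 20.3 and 0.824 FPKM followed for pacSC, 4.08, 2.34 and 2.83 for rST and 3.10, 8.47 and 22.3 for elST. The 6 batch I libraries were the 6 highest, from 18.6 to 26.7 FPKM, and the 12 batch II libraries did not overlap them. The share of all tested loci that split by batch in this way was not counted. Whether the type or the batch goes with this level cannot be told apart for priSG-B, since it has no batch II library.

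Snhg3 (chromosome 4, 132348014 to 132353686), the host of Snora73a and Snora73b just upstream of Rcc1, was the 1 member whose highest library was not priSG-B. Levels were 0.626, 3.54 and 10.3 FPKM for priSG-A, 7.06, 5.47 and 6.92 for priSG-B and 1.503, 5.16 and 3.70 for plpSC. For pacSC the values were 16.4, 14.5 and 1.97 FPKM, for rST 2.79, 3.33 and 0.450 and for elST 4.35, 5.14 and 16.2. Its highest values were those of pacSC replicates 1 and 2 and elST replicate 3, and each of these 3 had another of them as its closest library over all tested loci. The 3 priSG-A libraries spanned 0.626 to 10.3 FPKM, with replicate 3, which stood apart, at the top.

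Snhg8 (chromosome 3, 123507552 to 123508404), the host of Snora24, varied least, 3.26 times between its lowest and highest library. The priSG-A libraries held 31.1, 49.7 and 29.1 FPKM, the priSG-B libraries 64.7, 62.8 and 76.4 and the plpSC libraries 30.6, 57.7 and 47.8. The later types gave 35.9, 41.5 and 48.8 FPKM (pacSC), 42.5, 26.9 and 23.4 (rST) and 43.6, 50.7 and 39.3 (elST). In plpSC replicate 3 and pacSC replicate 3, where Snhg1 was at 2.04 and 3.33 FPKM, Snhg8 lay among or above the other libraries of its type.

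By mean FPKM, priSG-B came first for 9 of the 10 members and pacSC first for Snhg3. rST came last for 8 members, and pacSC for Snhg1 and Zfas1. The share of all tested loci with these ranks, with or without the 5 libraries that stood apart, was not counted. All priSG-B libraries are batch I. Snhg1 averaged 95.9 ± 9.19 FPKM in priSG-B (SD, n = 3), then 36.9 ± 17.5 in priSG-A, 24.7 ± 21.8 in plpSC, 19.9 ± 20.1 in elST, 13.1 ± 18.5 in rST and 11.03 ± 6.81 in pacSC. Only the step from priSG-B to the next type exceeded the larger SD of the pair, for Snhg1 as for Gas5, Zfas1, Snhg5, Snhg6, Snhg8 and Snhg12. In Snhg16 the step from priSG-A to rST at the bottom of the order exceeded it too, and in Epb41l4aos the step from plpSC to rST. In Snhg3 no neighbouring step did. The ratio of the highest to the lowest type mean ran from 2.20 in Snhg8 and 3.43 in Gas5 to 8.70 in Snhg1, 8.75 in Snhg6 and 13.8 in Zfas1. Without the 5 libraries that stood apart, priSG-B still came first for 9 members and pacSC for Snhg3, and rST came last for all 10. The ratio of highest to lowest type mean then ran from 2.70 in Snhg8 and 5.45 in Gas5 to 37.4 in Snhg6, 39.8 in Snhg1 and 72.2 in Zfas1. Snhg1 then averaged 45.8 ± 11.8 FPKM in priSG-A (SD, n = 2), 35.97 ± 13.4 in plpSC, 14.9 ± 1.98 in pacSC, 8.65 ± 7.01 in elST and 2.41 ± 0.598 in rST.

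Over the 18 libraries, 15 of the 45 pairs of members had Pearson's r above 0.9 on the log2(FPKM + 1) scale, and these were the 15 pairs among Snhg1, Gas5, Zfas1, Snhg5, Snhg6 and Snhg12. Snhg1 with Zfas1 gave 0.992 and Snhg1 with Gas5 0.985. Snhg16 reached 0.797 to 0.897 with these 6 and 0.876 with Epb41l4aos. Snhg3 reached 0.189 with Zfas1, the lowest of all pairs, and 0.706 with Epb41l4aos. Snhg8 lay between 0.326 and 0.643 with every other member. Over the 13 libraries left without the 5 that stood apart, the 15 pairs among the 6 genes gave 0.944 to 0.992, Snhg3 with Zfas1 0.136, and Snhg8 0.469 to 0.803. These values describe libraries that share type, batch and preparation and fall into clusters, so they carry no test.

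**Figure D3:**
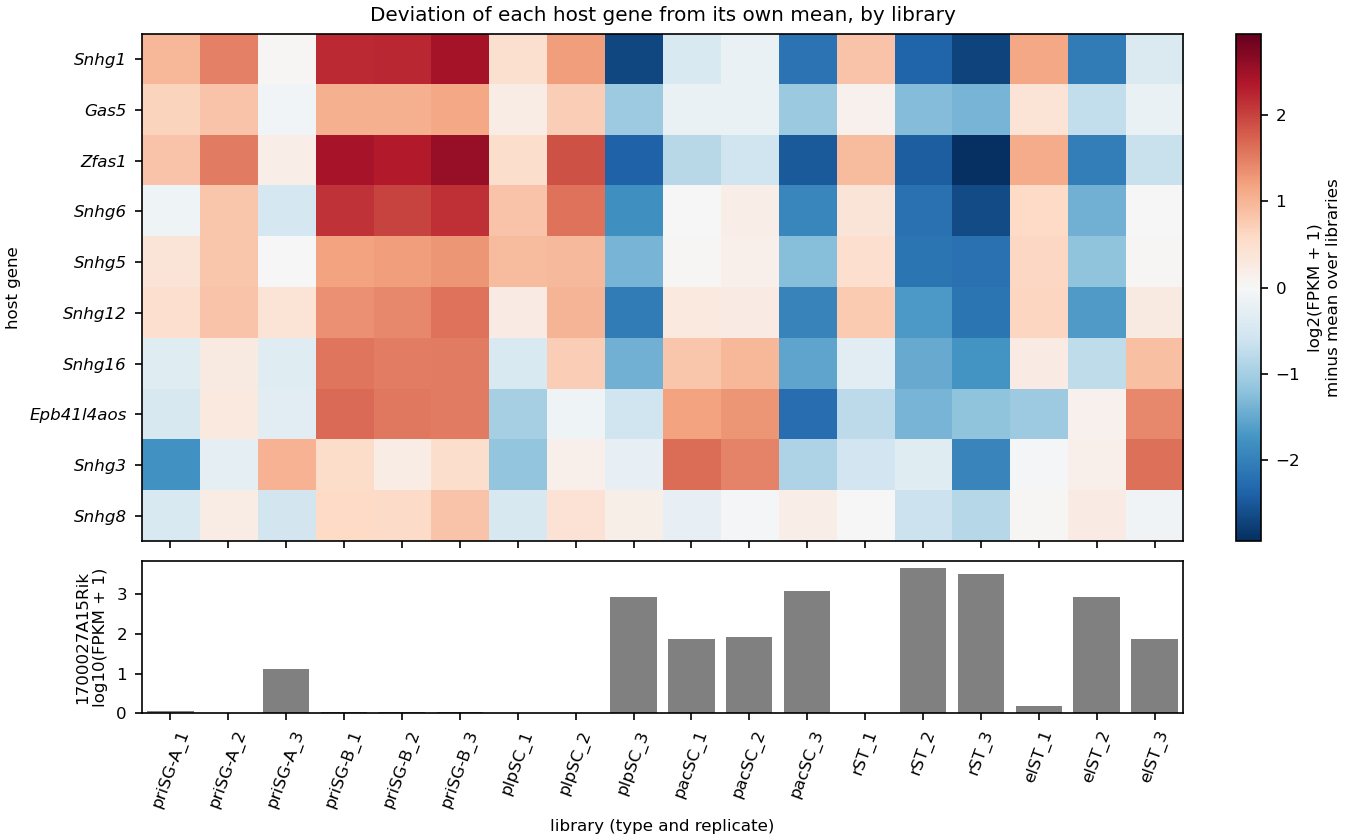
Deviation of each host gene from its own mean on the log2(FPKM + 1) scale (colour) in the 18 libraries, above the level of 1700027A15Rik as log10(FPKM + 1) (bars). Snhg1 to Snhg12 are low together in the 5 libraries where 1700027A15Rik stood at 874 to 4539 FPKM, while Epb41l4aos and Snhg3 are high in pacSC replicates 1 and 2 and elST replicate 3.

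Ratios within a library do not depend on how the library was scaled. Snhg1 stood at 1.39, 1.45 and 1.39 times the level of Snhg8 in priSG-B and at 1.21, 1.09 and 0.656 times in priSG-A. The ratio was 0.866, 0.788 and 0.0427 in plpSC, 0.375, 0.392 and 0.0682 in pacSC, 0.811, 0.106 and 0.0849 in rST and 0.974, 0.0727 and 0.346 in elST. The ratio lay between 0.656 and 1.45 in the 6 spermatogonial libraries, and Snhg1 was at 0.0427 to 0.106 of Snhg8 in the 5 libraries with 1700027A15Rik at 874 FPKM or more. Gas5 changed less against Snhg8, from 0.749 times in pacSC replicate 3 to 4.07 times in priSG-A replicate 1. Epb41l4aos against Snhg1 rose within batch I, from 0.225 to 0.296 in priSG-B to 1.38 and 1.25 in pacSC replicates 1 and 2. It was 1.64 in elST replicate 3. Against Snhg8 the change was smaller, from 0.314 to 0.413 in priSG-B to 0.517, 0.489 and 0.566 in those pacSC and elST libraries. In batch II the ratio of Epb41l4aos to Snhg1 ran from 0.0731 in elST replicate 1 to 2.34 in plpSC replicate 3. In bulk RNA, fewer cells of a type and less RNA per cell cannot be told apart, and the part that cell mixture has in these values was not tested.

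**Figure D4:**
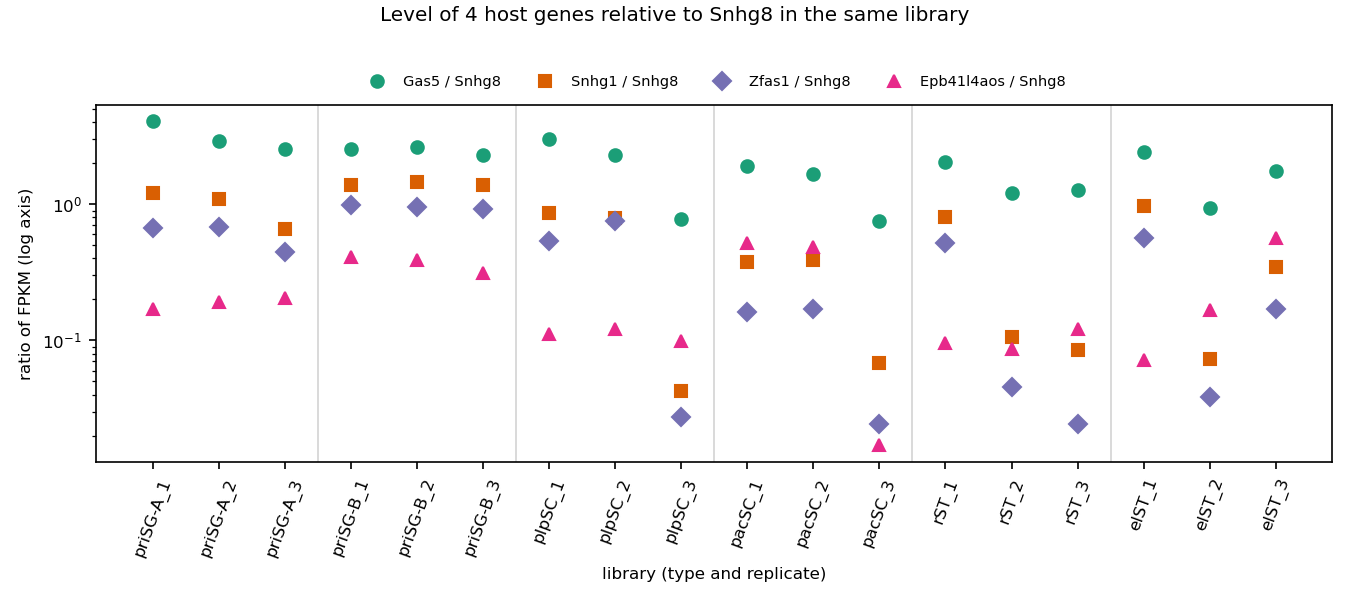
Level of Gas5, Snhg1, Zfas1 and Epb41l4aos divided by that of Snhg8 in the same library (log axis), with vertical lines between types. Snhg1 runs from 1.45 in priSG-B replicate 2 down to 0.0427 in plpSC replicate 3, and the replicates of plpSC, pacSC, rST and elST do not sit together.

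The first comparison set priSG-B at day 9 against priSG-A at day 6. All 10 members had a positive log2 fold change, with a median of 1.19 against -0.21 over all tested loci, but 0 of the 10 passed (limma, Benjamini-Hochberg adjusted p under 0.05), where 0.68% of all tested loci did. At an unadjusted p under 0.05 there were 3 members, Snhg6, Snhg8 and Snhg16, against 7.6% of all loci. Snhg6 had the largest estimate, 2.04 ± 0.95 (SE, limma adjusted p = 0.649). That of Snhg16 was 1.69 ± 0.74 (limma adjusted p = 0.612) and that of Snhg8 0.91 ± 0.40 (limma adjusted p = 0.603). For 9 members, all but Snhg3, every priSG-B library lay above every priSG-A library, which held for 11.1% of all loci.

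The spread in this fit comes from all 6 types, and it includes the 5 libraries that stood apart. Fitted on the 6 priSG libraries alone, Snhg6, Snhg16 and Epb41l4aos were called higher in priSG-B, beside 3.67% of all loci. Without the 5 libraries that stood apart, Snhg6 and Epb41l4aos were called, beside 10.9%. All priSG-B libraries are batch I and all priSG-A libraries batch II, so type and batch cannot be told apart here. With a batch term, estimated from pacSC and elST, Snhg3, Snhg12, Snhg16 and Epb41l4aos turned to negative log2 fold changes of -1.25, -0.64, -0.11 and -0.94, and the median of the 10 was 0.09. The libraries behind this term also differed in 1700027A15Rik. In pacSC it stood at 75.8 and 84.9 FPKM in batch I against 1195 in batch II, in elST at 73.0 against 0.570 and 875. The term thus cannot tell batch from other differences between these libraries, wherever it is used below.

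The second comparison set plpSC at day 14 against the same priSG-B libraries. All 10 members had a negative log2 fold change, with a median of -1.81 against 0.42 over all loci, and 0 of the 10 passed in limma beside 1.26% of all loci. At an unadjusted p under 0.05 there were 4, Snhg1, Zfas1, Snhg16 and Epb41l4aos, against 7.65% of all loci. Snhg1 had the largest estimate, -2.62 ± 1.11 (SE, limma adjusted p = 0.522), then Zfas1 with -2.44 ± 1.14 (limma adjusted p = 0.653) and Epb41l4aos with -2.15 ± 0.83 (limma adjusted p = 0.409). In all 10 members every plpSC library lay below every priSG-B library, as in 10.9% of all loci. Since priSG-B is shared with the first comparison, the 2 results are not independent. Without the 5 libraries that stood apart, plpSC replicate 3 among them, the median was -0.90 and Epb41l4aos was called lower, beside 11.6% of all loci. All plpSC libraries are batch II and all priSG-B libraries batch I, so type and batch cannot be told apart here either. With batch as a term, the median of the 10 was -0.45, and Snhg3 and Epb41l4aos turned to 1.19 and 0.54.

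The next comparisons run through meiosis and into spermatids, and in each 0 members and 0 loci (0%) passed in limma, with or without trend and robust estimation. In pacSC against plpSC, 3 members had positive values and 7 negative, with a median of -0.33 against 0.58 over all loci. Snhg3 stood at 1.15 ± 0.83 (SE) and Zfas1 at -1.29 ± 1.14, and 0 members had an unadjusted p under 0.05 (15.8% of all loci did). In rST against pacSC all 10 were negative, with a median of -0.72 against -0.35. Snhg3 had the largest, -1.69 ± 0.83 (limma adjusted p = 0.537), and 0 members had an unadjusted p under 0.05 (9.04% of all loci). Quantile normalization moved the median of all loci to 0.09 in that comparison and turned 6 members positive, with Zfas1, Gas5 and Snhg1 at 0.64, 0.44 and 0.42 and Snhg12, Snhg8 and Snhg6 below these. It moved the median of all loci in pacSC against plpSC to 0.03, where Snhg16 and Epb41l4aos turned negative, at -0.73 and -0.44.

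Batch runs through these comparisons too, since pacSC replicates 1 and 2 are batch I while every plpSC and rST library is batch II. In pacSC against plpSC, batch as a term moved the median of the members to -1.12 and turned 4 of them, with Snhg16, Snhg3 and Epb41l4aos at -0.73, -0.20 and -1.16 and Snhg8 at 0.12. Within batch II, where pacSC has 1 library, the median was -1.56. In rST against pacSC, batch as a term moved the median to -0.08 and turned Zfas1, Snhg12, Epb41l4aos and Snhg1 to 0.33, 0.46, 0.61 and 0.16. Within batch II the median there was 0.39, and 7 members were positive. In each of these fits 0 members passed in limma. In elST against rST all 10 were positive, with a median of 1.03 against 0.17, and 0 had an unadjusted p under 0.05 (1.89% of all loci). Snhg3 was the 1 member whose elST libraries all lay above its rST libraries, which held for 4.25% of all loci.

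Without the 5 libraries that stood apart, a choice made from the profiles themselves, these 3 comparisons called 3, 9 and 5 members, beside 71.2, 58.3 and 41.7% of all loci. The medians of the members were -0.51, -2.25 and 1.48. With those libraries left out, pacSC is batch I alone and plpSC and rST are batch II alone, so for the first 2 of these comparisons type and batch cannot be told apart. Within batch II, Epb41l4aos stood at 1.14 ± 1.00 and Snhg3 at -0.05 ± 1.22 in rST against pacSC (SE, limma adjusted p = 1 each). In pacSC against plpSC the calls were Snhg3 and Epb41l4aos higher and Zfas1 lower. In rST against pacSC all members but Snhg8 were called lower, with Snhg3 at -2.71 ± 0.69 (SE, limma adjusted p = 0.0066) and Epb41l4aos at -2.51 ± 0.44 (limma adjusted p = 0.000969). In elST against rST, Snhg3, Snhg5, Snhg6, Snhg16 and Epb41l4aos were called higher. The elST side of that fit was replicates 2 and 3, and elST replicate 3 was closest to pacSC replicate 2 over all loci (Pearson's r of 0.976 across genes, which are not independent replicates).

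The last comparison set the 2 spermatid types against the 2 spermatogonial types. All 10 members had a negative log2 fold change, with a median of -1.42 against 0.55 over all loci, and 0 of the 10 passed in limma beside 0.51% of all loci. At an unadjusted p under 0.05 there were 7, all but Snhg3, Snhg8 and Epb41l4aos, against 45.8% of all loci. Zfas1 had the largest estimate, -2.66 ± 0.81 (SE, limma adjusted p = 0.0997), then Snhg1 with -2.49 ± 0.79, Snhg6 with -1.96 ± 0.67, Snhg12 with -1.66 ± 0.66, Snhg5 with -1.55 ± 0.56 and Gas5 with -1.29 ± 0.39, each at the same adjusted p. Snhg8 stood at -0.42 (95% interval -1.02 to 0.17) and Snhg3 at -0.22 (-1.48 to 1.03).

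The calls in this comparison moved with the fit, for all loci as well as for the members. A term for replicate number, with every library kept, called 6 members lower, beside 40.5% of all loci, although the numbers do not pair these samples. Without rST replicate 1, 7 members were called lower (Snhg1, Snhg5, Snhg6, Snhg12, Snhg16, Gas5 and Zfas1), beside 57.2% of all loci. Without elST replicate 1, the same genes except Snhg16 were called lower, beside 51.2%. In these 2 libraries 1700027A15Rik is listed at 0 and at 0.570 FPKM, against 73.0 to 4539 FPKM in the other 4 spermatid libraries. Without all 5 libraries that stood apart, 9 members were called lower, all but Snhg3, beside 87.6% of all loci, and Snhg1 stood at -3.66 ± 0.33 (SE, limma adjusted p = 2.29e-06). Those libraries were chosen from the profiles themselves, and the adjusted p does not allow for that choice. Leaving them out removed the spermatid libraries highest in Snhg1, rST replicate 1 (34.5 FPKM) and elST replicate 1 (42.4 FPKM). It also removed the lowest spermatogonial one, priSG-A replicate 3 (19.1 FPKM). Within batch II, with 3 priSG-A, 3 rST and 2 elST libraries, the estimates of Snhg1 and Zfas1 were -1.77 ± 1.21 and -1.84 ± 1.27 (limma adjusted p = 0.548 each), and Snhg8 turned to 0.075. Over the 6 types together, the F test called 0 members and 0.68% of all loci. The smallest adjusted p among the members was 0.294, and 4 members had an unadjusted p under 0.05 (14.2% of all loci).

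**Figure D5:**
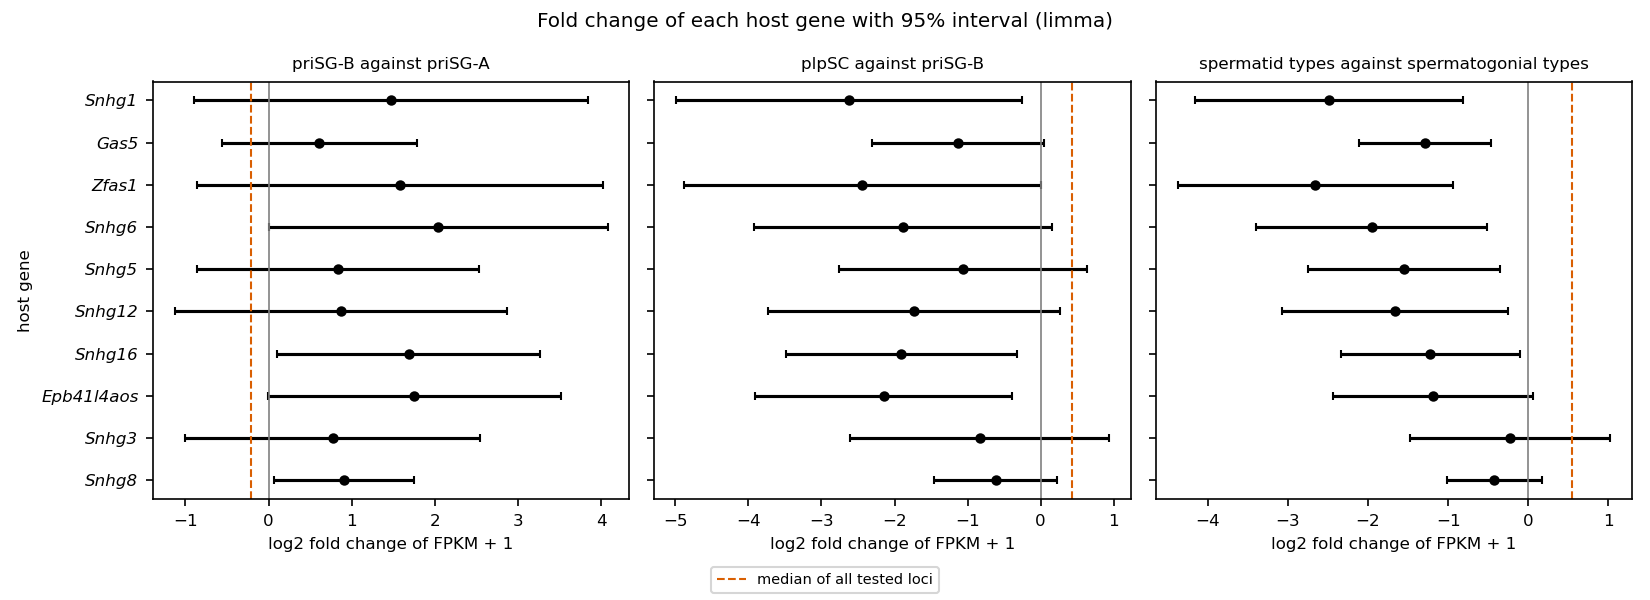
Log2 fold change of FPKM + 1 of each host gene with its 95% interval (limma) in 3 comparisons, with the median of all tested loci as a dashed line. All 10 estimates lie on the same side of 0 in each panel, at medians of 1.19, -1.81 and -1.42, and none passed after adjustment.

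Within batch I, priSG-B can be set beside pacSC replicates 1 and 2 and elST replicate 3 without a change of batch, as values and with no test. Zfas1 stood at 59.8 to 70.4 FPKM in priSG-B and at 5.82 to 7.05 FPKM in the other 3, and Snhg1 at 90.03 to 106 and at 13.5 to 16.3 FPKM. Gas5, at 166 to 177.05 and at 68.7 to 69.5 FPKM, and Snhg6, at 50.4 to 56.9 and at 11.8 to 13.8 FPKM, were likewise lower in these 3. Epb41l4aos was closer, at 24.0 to 26.7 and at 18.6 to 22.3 FPKM. Snhg3 was higher in the 3, at 14.5 to 16.4 FPKM against 5.47 to 7.06 FPKM.

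Of 15 other snoRNA host symbols listed, 11 had rows in the table, and 9 of these, on 11 rows, passed the filter on low values. None of the 11 rows passed in any of the 7 tests in limma, and 7 of them had an unadjusted p under 0.05 for spermatid against spermatogonial types, where 45.8% of all tested loci did. Snhg20, the most abundant of them by mean, had levels of 5.97, 12.2 and 7.17 FPKM in priSG-A, 27.8, 23.9 and 31.3 in priSG-B and 8.98, 16.5 and 0.489 in plpSC. The pacSC libraries held 4.32, 4.93 and 0.0786 FPKM, the rST libraries 11.3, 1.08 and 0.234 and the elST libraries 13.2, 1.14 and 4.79. Its 5 lowest libraries were those of Snhg1. Snhg17 ranged from 1.60 FPKM in rST replicate 2 to 17.5 FPKM in priSG-B replicate 2. Rian, an imprinted transcript that hosts box C/D snoRNAs, ranged from 2.27 FPKM in priSG-A replicate 3 to 19.6 FPKM in priSG-A replicate 1, with priSG-B at 14.2 to 14.4 FPKM. Snhg4 stood at 15.5, 16.2 and 17.04 FPKM in priSG-B. It was below 1 FPKM in all 3 pacSC libraries, plpSC replicate 3, rST replicates 2 and 3 and elST replicates 2 and 3. In rST replicate 1 and elST replicate 1 it stood at 8.50 and 15.4 FPKM.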

How the data were processed

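RNA of 18 libraries from 6 germ cell types was measured by sequencing. The authors deposited 1 table of FPKM, made with HISAT2 and StringTie on mm10 per the submitters' processing notes. For versions, annotation, strand setting and FPKM denominator: not given in the sources used here. Read totals were inferred from the steps of low FPKM values in 3340 single-exon loci of at least 600 bases: 31.7 to 92.1 M fragments per library, with 96.2 to 99.2% of low values whole within 0.02. A library held 1342 to 2866 loci at 1 FPKM or above.

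Values were tested as log2(FPKM + 1), a scale that understates changes of low genes, for loci that 3 or more libraries held at 1 FPKM or above. The test was limma 3.58.1 (R 4.3.3) with trend and robust estimation on all 18 libraries, two-sided, tested on simulated data first. Benjamini-Hochberg adjustment ran over all 4117 loci at a threshold of 0.05. Alternatives were a pseudocount of 0.1, no filter, a filter of 5 FPKM, quantile normalization, plain limma, batch (AY036118 divided at 100 FPKM) as a term, batch II alone, the compared groups alone, the replicate block and left-out libraries. Deviations of same-numbered libraries correlated above 0.1 in all 3 pairs for pacSC with plpSC (0.307 to 0.348) and elST with rST (0.132 to 0.85), from the data and no label, and the block called 0 members there too.

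Members, lists and the rule for named genes (all members, the 4 most abundant other hosts, the 5 loci most alike) were chosen with earlier results of these data known. Start sites come from RefSeq (GRCm38.p6) and snoRNAs from GENCODE M21. Python 3.11.15, numpy 2.4.6, pandas 2.3.3 and matplotlib 3.10.9 were used.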

Additional observations from a re-analysis of the deposited data

How the results depend on the processing

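Of 223 recomputed counts of members, 210 stayed within 1.5 times the value reported. For the limma counts, all reported as 0, this meant staying at 0. Many of these fits left out a library outside the comparison and changed only the spread estimate, so the 210 do not measure how stable the results are. The 13 counts that moved all rose from 0. Without the 5 libraries that stood apart, the counts called were 2 (priSG-B against priSG-A), 1 (plpSC against priSG-B), 3 (pacSC against plpSC), 9 (rST against pacSC), 5 (elST against rST), 9 (spermatid against spermatogonial types) and 10 (F test). The compared groups alone gave 3 for priSG-B against priSG-A. Leaving out replicates gave 0 to 1 for rST against pacSC and 0 to 7 for spermatid against spermatogonial types. The share of all loci called rose as well in each, to 3.67 to 95.3%.

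The replicate block gave 6 members and 1666 loci for spermatid against spermatogonial types, against 0 and 21 without it. Deviations of same-numbered libraries correlated at 0.492, -0.495 and 0.7 there, so the numbers do not pair those samples. In the 5 comparisons of neighbouring types, 2 to 4 of 6 libraries correlated best with their own number, and the block called 0 members.

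For priSG-B against priSG-A, plpSC against priSG-B and spermatid against spermatogonial types, 12 of 910 recomputed log2 fold changes of single members changed sign and 39 newly passed. With batch as a term these sign changes were, for priSG-B against priSG-A, -1.25 (Snhg3), -0.64 (Snhg12), -0.11 (Snhg16) and -0.94 (Epb41l4aos), for plpSC against priSG-B 1.19 (Snhg3) and 0.54 (Epb41l4aos), and for spermatid types 0.45 (Snhg3). Snhg3 in spermatid types also turned to 0.17 without the 5 libraries, and leaving out replicates gave -0.58 to 0.12 (0.12 without replicate 3 or priSG-A replicate 3, 0.02 without rST replicate 3). Snhg8 turned to 0.075 within batch II. Many of the 910 could not change sign. Leaving out a library of a type outside the comparison, or changing only the filter or spread estimate, left the fold change as it was. In the other 3 comparisons, sign changes were counted under 4 settings. In pacSC against plpSC 4 members changed with batch as a term, 4 within batch II and 2 after quantile normalization, in rST against pacSC 4, 7 and 6, and in elST against rST 0 under each, and without the 5 libraries 0 changed in any of the 3. The cause was not tested. Members whose groups did not overlap, an alternative chosen after seeing the data, numbered 8 to 10 of 10 for priSG-B against priSG-A (8 after quantile normalization, beside 11.1 to 25.4% of all loci) and 7 to 10 for plpSC against priSG-B (7 after quantile normalization, beside 10.9 to 23.8% of all loci).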

Other observations

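The 5 loci most like the mean of the 10 host genes were taken from 953 other tested loci with a mean of at least 5 FPKM, by Pearson's r over the 18 libraries, as a description with no test. They were Gm37401 (r of 0.988), Terc (0.979), Gm37676 (0.97), 4930558J22Rik (0.967) and Gm38166 (0.957). By the same measure Snhg6 was the member closest to the mean (0.979) and Snhg3 the farthest from it (0.464). The mean holds the members themselves.

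Gm37401, on chromosome 9 (108337089 to 108338273), shares 324 bases of exon with Rhoa on the other strand, and its fragments could not be separated from those of Rhoa. Its level was 22.3 to 37.0 FPKM in priSG-A and 58.9 to 69.9 FPKM in priSG-B. It stood at 28.3, 7.89 and 5.65 FPKM in rST, where Snhg1 was at 34.5, 2.83 and 1.99 FPKM. Terc, the RNA of telomerase, was at 392 to 524 FPKM in priSG-B, at 12.8 to 77.5 FPKM in priSG-A and at 0.320 to 2.55 FPKM in plpSC and pacSC replicate 3 and elST replicate 2. It was at 1.32 FPKM in rST replicate 2 and is listed at 0 in rST replicate 3. 4930558J22Rik, which shares 223 bases with the histone gene Hist1h4b on the other strand, ranged from 0.637 FPKM in rST replicate 3 to 131 FPKM in priSG-B replicate 3. Most members, namely Snhg1, Snhg5, Snhg6, Snhg8, Snhg12, Gas5 and Zfas1, had the same lowest and highest libraries.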
